A study of Mus musculus with 6 samples.

Results

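The nuclear-encoded genes of the mitochondrial respiratory chain and ATP synthase were described in mouse dendritic cells exposed to lipopolysaccharide (LPS) or to reactive oxygen species (ROS) made inside the cell by light. Members were taken by gene symbol: Nduf followed by a, b, c, s or v for complex I, Sdha to Sdhd for complex II, Uqcr for complex III, Cox4 to Cox8 for complex IV and Atp5 for ATP synthase. These symbols matched 69 of the 7989 genes in the authors' table of log2 intensities, through 82 probes. Each gene was represented by its probe of highest mean level on the 6 arrays, and 10 members had more than 1 probe. The set held 28 complex I subunits, 2 complex II subunits, 6 complex III subunits, 12 complex IV subunits and 15 ATP synthase subunits. Ndufa4, later found in complex IV, is counted with complex I by its symbol. The set also held 5 complex I assembly factors (Ndufaf genes) and Ndufs5-ps, which is annotated as a pseudogene. All 69 passed the filter on dim probes, and 64 were above background on all 6 arrays. Subunits that the symbols would also have matched, such as Ndufs1, Ndufab1, Sdha, Sdhd and Uqcrfs1, had no named probe in that table and were not analysed here, nor was any mitochondrially encoded subunit.

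Bone marrow of 6-week-old Rag2 knockout animals (labelled C57BL/10NAGCSnAi-(KO) Rag2, C57BL background) was kept for 6 days in 1.5 ng/ml GM-CSF and 1.5 ng/ml IL-4 to make the cells. The Rag2 deletion is carried by all groups, controls included, and removes mature T and B cells. There were 3 groups of 2 samples, and each sample was hybridised to 1 array. LPS cells received LPS, a component of the outer membrane of Gram-negative bacteria, at 1 µg/ml for 18 h. ROS cells received hematoporphyrin, a porphyrin that makes ROS when lit, at 1 µg/ml for 1 h, were washed and lit for 3 min at 3.1 mW per square cm with a peak at 515 nm (range 450 to 600 nm), and were cultured for 18 h. The third group is labelled unstimulated. Whether these cells received hematoporphyrin or light, and how long they were kept after the 6 days, is not stated in the sources used here, so drug, light and culture time cannot be told apart from ROS. The labels number the samples of a group 1 and 2 without naming separate animals or cultures. The p-values set differences between groups against the spread of samples within groups, taken over the 3 groups together. That spread may be only technical.

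The respiratory chain is a series of protein complexes in the inner mitochondrial membrane. Complex I takes electrons from NADH and complex II takes them from succinate. Complex III passes them on to cytochrome c, and complex IV passes them to oxygen. Complexes I, III and IV pump protons, and ATP synthase lets the protons flow back through a rotating c-ring to make ATP. Most subunits are encoded in the nucleus. Dendritic cells and macrophages given LPS are known to turn from respiration towards glycolysis, and the chain is itself a source of ROS.

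The mean probe signal was 529 and 545 on the LPS arrays, 626 and 643 on the ROS arrays, and 704 and 765 on the unstimulated arrays. Between 10428 and 11438 probes were above background on an array. Replicate arrays correlated across probes at 0.988 for LPS, 0.992 for ROS and 0.993 for unstimulated cells, and no pair from different groups exceeded 0.939. With 2 arrays a group, the number of arrays limits the precision. Cultures of bone marrow in GM-CSF are known to hold macrophages and granulocytes beside dendritic cells, and marker genes of these cells moved with the groups. The summed linear intensity of 11 tested markers of neutrophils and their precursors, of 11 listed, was 19060 to 19398 in LPS cells, 45060 to 48610 in ROS cells and 58200 to 59992 in unstimulated cells. Of these markers Ngp, Mpo, Prtn3 and Ctsg were not above background on either LPS array. The 6 tested of 9 listed macrophage markers summed to 18123 to 19375 in LPS cells, 1647 to 1766 in ROS cells and 21817 to 22295 in unstimulated cells. The 9 tested of 10 listed dendritic cell markers summed to 66511 to 69719, 63144 to 63786 and 87778 to 98062 in LPS, ROS and unstimulated cells, and Itgax was above background on only the second LPS array. The 5 tested of 8 listed cell cycle genes summed to 1638 to 1695, 5437 to 5487 and 1982 to 2105 in the same groups. The 2 tested of 6 listed mast cell and basophil genes summed to 80.8 to 114 in LPS cells, 2842 to 3286 in ROS cells and 557 to 598 in unstimulated cells, and Fcer1a was not above background on either LPS array. The 3 tested of 5 listed stromal genes summed to 2609 to 3036, 168 to 195 and 244 to 255, the 2 of 4 erythroid genes to 404 to 434, 1463 to 1487 and 1070 to 1115, the 2 of 4 natural killer genes to 70.9 to 105, 140 to 161 and 78.1 to 88.8, and the 1 of 5 T and B cell genes to 31.3 to 32.02, 81.4 to 101 and 47.8 to 51.6 in LPS, ROS and unstimulated cells. Such sums weigh bright genes most, and markers of a type did not all move alike. In LPS minus unstimulated, 1 neutrophil marker rose and 10 fell (adjusted p under 0.05 in limma). There 2 macrophage markers rose and 4 fell, and 1 dendritic cell marker rose and 6 fell. In ROS minus unstimulated these counts were 4 and 5, 0 and 5, and 4 and 4. Over all genes 24.7% rose and 29.0% fell in LPS cells, and 21.8% rose and 18.0% fell in ROS cells. The part of these cell types in the results was not tested. In RNA from mixed cells, fewer cells of a type and less RNA per cell cannot be told apart.

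In LPS cells at least 1 subunit of each of the 5 complexes fell against unstimulated cells. Of the 69 members 44 fell, 1 rose (Cox6a2) and 24 were not called at an adjusted p under 0.05 in limma. Among all 7896 genes tested, 53.7% were called: 29.0% fell and 24.7% rose. The median log2 fold change was -0.61 over the members and -0.05 over all genes tested. On both LPS arrays 58 members lay below both unstimulated arrays and 3 lay above, while 8 overlapped. Over all genes 41.7% lay below and 37.1% above in this way. Of the 59 subunits detected on all 6 arrays, 41 fell and 1 rose, with a median of -0.64. Members are bright, so the same counts were taken by mean level: among genes at a log2 level of 12 and over, 17 of 24 members fell (70.8%), against 39.5% of all 522 genes at that level, and from 10 to 12, 17 of 23 members fell (73.9%), against 31.0% of all genes. This contrast in falls depended on scaling. Under scaling of each array to its median, 6 of 24 members fell at 12 and over (25%), against 21.5% of all genes. From 10 to 12, 12 of 23 fell (52.2%), against 20.8%. In the same setting 4.17% of members rose at 12 and over, against 47.7% of all genes, with medians of -0.14 and 0.30. From 10 to 12, 4.35% of members rose, against 40.6% of all genes, with medians of -0.44 and 0.18.

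The size of the LPS shift depended on how the arrays were scaled. The main values are quantile normalised. Under scaling of each array to its median, 27 members fell and 3 rose, the members' median was -0.30 and the median of all genes was 0.14; 23.5% of all genes then fell and 33.5% rose. With no scaling 65 members fell, with a median of -1.19 beside -0.75 for all genes. The distance between both medians stayed between -0.44 and -0.60 under every setting tried. Of the 44 calls, 30 held when each array was left out in turn and 22 held under all settings in which the gene was tested. Cox7a1 and Cox7a2, among these 22, were not tested where detection on all 6 arrays was required.

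In ROS cells members moved in both directions. Against unstimulated cells, 9 members rose, 11 fell and 49 were not called, where 39.8% of all genes tested were called (21.8% rose and 18.0% fell). The members' median was -0.12, beside 0.05 for all genes. Both ROS arrays lay above both unstimulated arrays for 17 members and below for 36, where 40.4% of all genes lay above and 33.3% below. Of the 9 rises, those of Ndufa4, Ndufs6 and Ndufaf4 held when each array was left out in turn, and of the 11 falls, those of Ndufv3, Sdhc, Cox6a2, Cox7a1 and Cox7a2l did. The other 12 calls were lost without at least 1 ROS or unstimulated array.

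Set against ROS cells directly, LPS cells had 37 members lower, 1 higher and 31 not called, where 55.7% of all genes tested were called (30.9% lower and 24.9% higher). The members' median was -0.48, beside -0.08 for all genes. Under median scaling 18 members were lower and 3 higher, with a median of -0.17 beside 0.07 for all genes. By complex, 15 of 28 complex I subunits, 4 of 6 in complex III, 8 of 12 in complex IV and 7 of 15 in ATP synthase were lower, as were 2 of 5 assembly factors and Ndufs5-ps, while neither complex II subunit was called. Of the 37 calls, 26 held when each array was left out in turn. The order of the 3 group means was LPS, ROS, unstimulated from low to high for 43 members, and LPS, unstimulated, ROS for 19. Because LPS and ROS cells share the unstimulated arrays, their calls are given side by side: 10 members fell in both, 32 fell in LPS cells and were not called in ROS cells, and 7 rose in ROS cells and were not called in LPS cells. Uqcr10 and Atp5g1 fell in LPS cells and rose in ROS cells, and Cox6a2 did the reverse. The shares of all genes with these joint calls or orders of means were not counted. Whether the members differ from other genes in them was not tested. The plot of fold changes by gene shows these differences within each complex.

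**Figure D1:**
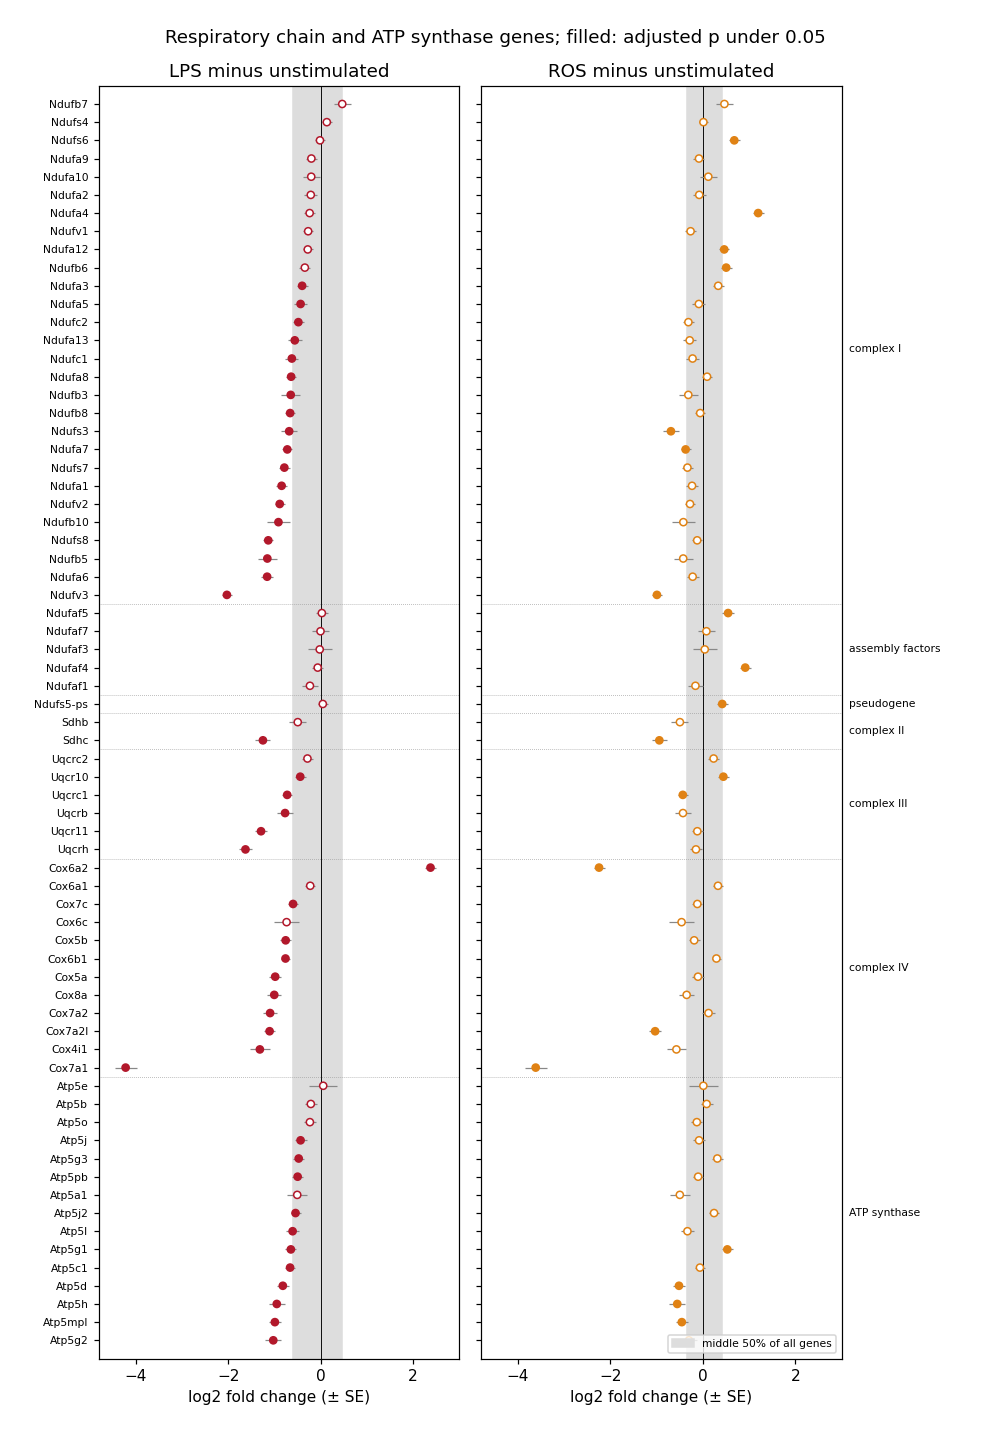
Log2 fold change with its standard error (x axis) of each of the 69 members (rows, by complex), for LPS minus unstimulated on the left and ROS minus unstimulated on the right; filled points passed an adjusted p under 0.05 and the grey band holds the middle 50% of all genes tested. Most points on the left lie below 0, with 44 called lower and 1 higher, while on the right 11 are called lower and 9 higher.

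**Figure D2:**
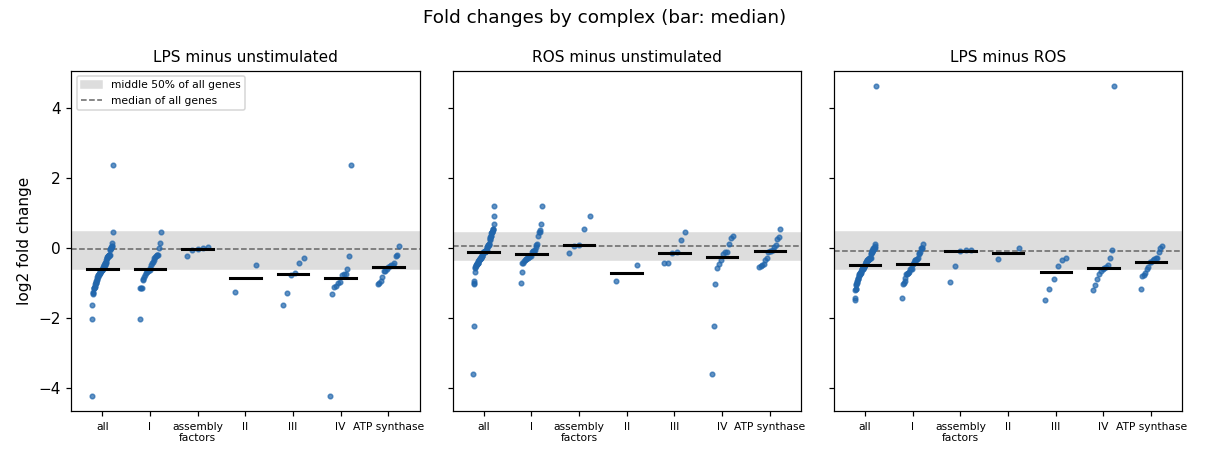
Log2 fold change of each member (points) and the median (bar) for all members and for each complex, in LPS minus unstimulated, ROS minus unstimulated and LPS minus ROS from left to right; the grey band holds the middle 50% of all genes tested and the dashed line is their median. The assembly factors have a median of -0.02 in LPS minus unstimulated, where the medians of the complexes run from -0.55 for ATP synthase to -0.88 for complexes II and IV.

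Promoters of 6 members are shown because these genes had the patterns described below: falls in both treated groups (Ndufv3, Uqcrc1, Cox7a1), a fall in LPS cells with no call in ROS cells (Uqcrh), and a rise in ROS cells (Ndufa4, Ndufaf4). Each window runs from 250 bases before to 30 bases after the annotated start of the gene, 5′ to 3′ on the strand of the gene, from RefSeq on build GRCm38.p6. Capitals mark a match to a motif of NRF1, ETS factors or YY1, which are known to bind promoters of respiratory genes.
Ndufv3 promoter, chr17:31519865-31520144, plus strand: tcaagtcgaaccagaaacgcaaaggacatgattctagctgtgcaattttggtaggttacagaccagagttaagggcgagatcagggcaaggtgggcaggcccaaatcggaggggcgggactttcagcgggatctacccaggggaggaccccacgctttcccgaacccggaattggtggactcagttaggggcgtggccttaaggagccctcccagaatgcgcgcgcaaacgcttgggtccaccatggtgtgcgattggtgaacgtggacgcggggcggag
Ndufa4 promoter, chr6:11907421-11907700, minus strand: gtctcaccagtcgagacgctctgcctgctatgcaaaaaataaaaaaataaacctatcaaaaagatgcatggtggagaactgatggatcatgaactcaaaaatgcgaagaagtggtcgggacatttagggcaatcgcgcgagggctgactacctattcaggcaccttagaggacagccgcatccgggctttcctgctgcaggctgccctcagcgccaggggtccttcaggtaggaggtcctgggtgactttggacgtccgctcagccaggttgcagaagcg
Ndufaf4 promoter, chr4:24897833-24898112, plus strand: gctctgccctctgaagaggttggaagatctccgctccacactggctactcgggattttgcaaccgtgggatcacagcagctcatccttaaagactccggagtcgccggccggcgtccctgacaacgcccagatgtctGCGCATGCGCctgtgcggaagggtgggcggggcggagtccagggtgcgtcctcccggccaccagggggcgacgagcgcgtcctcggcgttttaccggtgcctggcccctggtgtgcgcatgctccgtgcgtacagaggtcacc
Uqcrh promoter, chr4:116075041-116075320, minus strand: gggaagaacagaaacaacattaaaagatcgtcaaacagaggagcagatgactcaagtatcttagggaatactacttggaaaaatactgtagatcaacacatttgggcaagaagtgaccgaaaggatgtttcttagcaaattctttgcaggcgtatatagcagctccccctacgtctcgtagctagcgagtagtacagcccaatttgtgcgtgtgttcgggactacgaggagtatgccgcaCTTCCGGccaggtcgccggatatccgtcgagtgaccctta
Uqcrc1 promoter, chr9:108936398-108936677, plus strand: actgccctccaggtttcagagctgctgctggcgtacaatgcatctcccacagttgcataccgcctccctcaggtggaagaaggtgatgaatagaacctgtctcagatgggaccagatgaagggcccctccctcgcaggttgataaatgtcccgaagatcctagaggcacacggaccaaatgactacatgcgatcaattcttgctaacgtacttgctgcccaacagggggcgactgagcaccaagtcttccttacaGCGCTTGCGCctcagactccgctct
Cox7a1 promoter, chr7:30183921-30184200, plus strand: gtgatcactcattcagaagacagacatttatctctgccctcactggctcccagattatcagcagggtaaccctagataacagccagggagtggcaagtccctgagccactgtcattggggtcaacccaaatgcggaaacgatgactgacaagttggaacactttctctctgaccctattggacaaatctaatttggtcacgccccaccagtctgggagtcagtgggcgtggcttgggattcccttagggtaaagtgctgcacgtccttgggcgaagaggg
Ndufaf4 held the NRF1 motif on both strands, since it reads alike on each, at -113 from the start, Uqcrc1 held it on the reverse strand at 6, and Uqcrh held the ETS motif on the reverse strand at -10. In Ndufv3, Ndufa4 and Cox7a1 the letters of these 3 motifs were not in the window. The core of the hypoxia response element, ACGTG, was in the windows of Ndufv3 and Cox7a1 and is not capitalised.

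Of the 69 members, 59 had a promoter in the RefSeq table. A total of 6 motifs were searched on both strands in windows of the same 280 bases. The NRF1 motif (GCGCA, any base, GCGC) was in 12 of 59 members (20.3%) and in 4.98% of 27025 genes. These 27025 are all genes with a promoter in the RefSeq table, not only the 7896 tested on the arrays. Motif shares among the tested genes were not counted. The ETS core CCGGAAG was in 15 of 59 (25.4%) and in 9.48% of all. The YY1 motif AAGATGGC was in 4 members (6.78%) and in 2.66% of all. The hypoxia response core ACGTG was in 15 members (25.4%) and in 20.6% of all, the interferon-stimulated response element (GAAA, any 2 bases, GAAA) in 2 (3.39%) and in 3.80%, and the NF-kappaB motif (GGG, any 2 bases, TTTCC) in 1 (1.69%) and in 1.80%. No motif searched contains another. In LPS minus unstimulated, the 12 members with the NRF1 motif had a median log2 fold change of -0.46 and 7 fell, while the 47 without it had a median of -0.63 and 33 fell. For the ETS core the medians were -0.61 in the 15 members with it and -0.61 in the 44 without it. A match describes letters only and is no evidence of binding.

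Complex I had 18 of its 28 subunits lower in LPS cells than in unstimulated cells and none higher, with a median log2 fold change of -0.59. In ROS cells 4 rose and 3 fell. Over all genes 29.0% fell and 24.7% rose in LPS cells, and 18.0% fell and 21.8% rose in ROS cells. Under median scaling the LPS calls of Ndufa3, Ndufa5, Ndufa8, Ndufa13, Ndufb8, Ndufb10 and Ndufc1 were lost. The core subunits, which are conserved from bacteria and carry the electrons, fell in 4 of 5 cases in LPS cells: Ndufs3, Ndufs7, Ndufs8 and Ndufv2. Ndufs8, which holds iron-sulfur clusters on the way to ubiquinone, had log2 levels of 9.90 and 10.01 on the LPS arrays, 10.95 and 10.99 on the ROS arrays, and 11.08 and 11.11 on the unstimulated arrays. Both LPS arrays lay below all 4 others, and the ROS arrays lay just below the unstimulated ones. Its log2 fold change was -1.14 ± 0.11 (SE, adjusted p = 0.000418) in LPS minus unstimulated, -0.12 (adjusted p = 0.413) in ROS minus unstimulated and -1.01 ± 0.11 (adjusted p = 0.000571) in LPS minus ROS. Ndufv1, the subunit that binds NADH, was at 11.71 and 11.69 in LPS cells, 11.70 and 11.71 in ROS cells, and 12.04 and 11.90 in unstimulated cells, and was not called (log2 fold change -0.27 in each comparison with unstimulated cells, adjusted p = 0.0844 for LPS and 0.108 for ROS). Under median scaling its LPS minus ROS value of -0.01 became 0.33 (adjusted p = 0.0444). Ndufs3, a core subunit near the site of ubiquinone, was at 9.87 and 9.41 in LPS cells, 9.58 and 9.68 in ROS cells, and 10.24 and 10.41 in unstimulated cells. Both treated groups lay below the unstimulated arrays and overlapped each other. It was lower in LPS cells (-0.68, adjusted p = 0.0191) and in ROS cells (-0.69, adjusted p = 0.0249). The LPS call was lost without the second LPS array or either unstimulated array (adjusted p up to 0.103), and the ROS call without any 1 ROS or unstimulated array (up to 0.126).

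Among the accessory subunits, 14 of 23 fell in LPS cells, where 29.0% of all genes fell. The furthest was Ndufv3, a small subunit of the arm that oxidises NADH. Its log2 level was 11.55 and 11.48 in LPS cells, 12.56 and 12.55 in ROS cells, and 13.56 and 13.54 in unstimulated cells. The 3 groups were thus separate and about evenly spaced, LPS lowest. In LPS minus unstimulated this was 4.09-fold lower (log2 fold change -2.03 ± 0.11, adjusted p = 4.17e-05), in ROS minus unstimulated 1.99-fold lower (-0.99 ± 0.11, adjusted p = 0.00117) and in LPS minus ROS 2.05-fold lower (-1.04 ± 0.11, adjusted p = 0.000458). Of its other probes, one fell alike in LPS cells (-2.30) and the dimmest, with a mean log2 level of 5.69, did not pass the test (0.29, adjusted p = 0.401). Ndufa6, another accessory subunit, was 2.24-fold lower in LPS cells (adjusted p = 0.000769), with 10.75 and 10.60 on the LPS arrays, 11.52 and 11.71 on the ROS arrays, and 11.78 and 11.90 on the unstimulated arrays. Both LPS arrays lay below the other 4. Ndufb5, an accessory subunit of the membrane arm, was at 5.67 and 6.22 in LPS cells, 6.59 and 6.77 in ROS cells, and 7.23 and 6.97 in unstimulated cells, and was 2.23-fold lower in LPS cells (adjusted p = 0.00513). Ndufb10 was above background on neither LPS array and was at least 1.29-fold lower in LPS cells. That call was lost without the first LPS array or either unstimulated array (adjusted p up to 0.126).

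In ROS cells 4 of the 23 accessory subunits rose (17.4%), where 21.8% of all genes rose. Ndufa4, first assigned to complex I and later found in cytochrome c oxidase, is counted here with complex I by its symbol. It had log2 levels of 10.50 and 10.50 in LPS cells, 11.85 and 12.02 in ROS cells, and 10.75 and 10.73 in unstimulated cells. Both ROS arrays were more than 1 log2 unit above the other 4. It was 2.29-fold higher in ROS minus unstimulated (1.20 ± 0.12, adjusted p = 0.000835), was not called in LPS minus unstimulated (-0.24 ± 0.12, adjusted p = 0.127), and was 2.71-fold lower in LPS minus ROS (-1.44 ± 0.12, adjusted p = 0.000182). Ndufs6, which binds zinc in the NADH-oxidising arm, was at 12.83 and 12.84 in LPS cells, 13.46 and 13.60 in ROS cells, and 12.83 and 12.87 in unstimulated cells. The LPS and unstimulated arrays overlapped, and ROS cells were 1.60-fold higher than unstimulated cells (0.68 ± 0.11, adjusted p = 0.00579). This call was lost with no scaling, and under median scaling Ndufs6 was higher in LPS cells (0.46, adjusted p = 0.0168), where the main value was -0.02. Ndufa12 (0.46, adjusted p = 0.0172) and Ndufb6 (0.50, adjusted p = 0.0199) also rose in ROS cells. The call of Ndufa12 was lost without any 1 ROS or unstimulated array (adjusted p up to 0.0796). That of Ndufb6 was lost without the second ROS array or either unstimulated array (up to 0.098), and its dimmer probe had -0.35 (adjusted p = 0.239). Ndufs4, whose loss in humans causes Leigh syndrome, had 0.13 in LPS cells and 0.01 in ROS cells and was not called, although the dimmest of its 4 probes rose in LPS cells (0.59, adjusted p = 0.0175).

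Of the 5 assembly factors, which help build complex I and are not part of it, none fell in LPS minus unstimulated, all 5 had overlapping arrays there, and their values lay between -0.24 and 0.02. In ROS cells 2 of 5 rose. Over all genes 29.0% fell in LPS cells and 21.8% rose in ROS cells. Both LPS arrays lay below both unstimulated arrays for 41.7% of all genes and above for 37.1%. Ndufaf1, Ndufaf3, Ndufaf5 and Ndufaf7 were dim, with mean log2 levels under 8 in every group. At a mean level under 8, 25.4% of all genes and 5 of 13 members (38.5%) fell in LPS cells, and the members' median was -0.24. Ndufaf4 was at 9.56 and 9.73 in LPS cells, 10.64 and 10.62 in ROS cells, and 9.69 and 9.73 in unstimulated cells. ROS cells stood alone, 1.89-fold above unstimulated cells (0.92 ± 0.12, adjusted p = 0.00218), and LPS minus ROS was -0.98 ± 0.12 (adjusted p = 0.000831). Ndufaf5, which hydroxylates a core subunit, was at 7.26 and 7.34 in LPS cells, 7.80 and 7.85 in ROS cells, and 7.17 and 7.38 in unstimulated cells. It rose 1.46-fold in ROS cells (adjusted p = 0.0164), a call lost without either ROS array or the first unstimulated array (adjusted p up to 0.0909). With no scaling its LPS minus unstimulated value of 0.02 became -0.90 (adjusted p = 0.000514). Ndufs5-ps was at 10.71 and 10.72 in LPS cells, 11.12 and 11.07 in ROS cells, and 10.59 and 10.75 in unstimulated cells. In both genes the ROS arrays were highest and the LPS and unstimulated arrays overlapped. Ndufs5-ps was higher in ROS cells (0.42, adjusted p = 0.0317), a call lost without any 1 ROS or unstimulated array (up to 0.15), and with no scaling its LPS value of 0.04 became -0.63 (adjusted p = 0.00351). Whether its probe also binds Ndufs5 mRNA was not tested.

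Complex II, the only complex of the chain that is also an enzyme of the tricarboxylic acid cycle, had 2 members. Sdhc, a membrane anchor of the complex, had log2 levels of 9.78 and 9.67 in LPS cells, 10.23 and 9.84 in ROS cells, and 10.90 and 11.05 in unstimulated cells. Both treated groups lay below the unstimulated arrays. Its log2 fold change was -1.25 ± 0.16 in LPS minus unstimulated (adjusted p = 0.00134), -0.94 ± 0.16 in ROS minus unstimulated (adjusted p = 0.00636) and -0.31 ± 0.16 in LPS minus ROS (adjusted p = 0.15). Sdhb, the iron-sulfur subunit, was at 8.76 and 8.32 in LPS cells, 8.67 and 8.42 in ROS cells, and 8.95 and 9.13 in unstimulated cells and was not called (-0.50 in both comparisons with unstimulated cells, adjusted p = 0.0649 for LPS and 0.0796 for ROS). Its dimmer probe fell in both, by 1.18 on the log2 scale in LPS cells (adjusted p = 0.000579) and by 0.89 in ROS cells (adjusted p = 0.00301).

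Complex III had 5 of 6 members lower in LPS cells, with a median of -0.75, where 29.0% of all genes fell. Uqcrh, the hinge protein beside the site that docks cytochrome c, was at 10.27 and 10.26 in LPS cells, 11.66 and 11.83 in ROS cells, and 12.01 and 11.78 in unstimulated cells. The ROS and unstimulated arrays overlapped and the LPS arrays were more than 1 log2 unit lower. It was 3.10-fold lower in LPS minus unstimulated (-1.63 ± 0.13, adjusted p = 0.000233) and 2.79-fold lower in LPS minus ROS (-1.48 ± 0.13, adjusted p = 0.000296), with -0.15 in ROS minus unstimulated (adjusted p = 0.419). Uqcr11, a small membrane subunit, showed the same order, with 11.07 and 10.87 in LPS cells, 12.15 and 12.13 in ROS cells, and 12.28 and 12.25 in unstimulated cells. It was 2.45-fold lower in LPS cells than in unstimulated cells (adjusted p = 0.000367). Uqcrc1, a core protein of the matrix side, was at 10.78 and 10.70 in LPS cells, 11.01 and 11.04 in ROS cells, and 11.43 and 11.50 in unstimulated cells. It fell 1.66-fold in LPS cells (adjusted p = 0.00247) and 1.35-fold in ROS cells (adjusted p = 0.0239). The ROS call was lost without any 1 ROS or unstimulated array (adjusted p up to 0.111). Uqcrb, a subunit that binds ubiquinone, was at 6.39 and 6.75 in LPS cells, 6.81 and 7.01 in ROS cells, and 7.44 and 7.24 in unstimulated cells. Its groups did not overlap, and its fall in LPS cells (-0.77 ± 0.17, adjusted p = 0.0104) was lost without the first unstimulated array (adjusted p = 0.0671). ROS minus unstimulated was not called (-0.43, adjusted p = 0.0911). Uqcr10, another small subunit, was at 13.40 and 13.35 in LPS cells, 14.28 and 14.25 in ROS cells, and 13.92 and 13.73 in unstimulated cells, so that the groups did not overlap. Its fall in LPS cells (-0.44 ± 0.12, adjusted p = 0.0223) was lost without either LPS array or the first unstimulated array (adjusted p up to 0.115) and was 0.037 under median scaling. Its rise in ROS cells (0.44 ± 0.12, adjusted p = 0.03) was lost without any 1 ROS or unstimulated array (up to 0.142), and its other probe had 0.26 there (adjusted p = 0.116). LPS minus ROS was -0.89 ± 0.12 (adjusted p = 0.00143) and held with each array left out, though not under median scaling.

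Complex IV, cytochrome c oxidase, had 9 of 12 members lower and 1 higher in LPS cells, with a median of -0.88, and 3 lower and none higher in ROS cells. Ndufa4, which rose in ROS cells, is counted with complex I by its symbol and is not among these 12. Over all genes 29.0% fell and 24.7% rose in LPS cells, and 18.0% fell and 21.8% rose in ROS cells. Under median scaling the LPS calls of Cox5b, Cox6b1 and Cox7c were lost. Several subunits of complex IV exist as tissue forms, and the largest changes were in the forms named for heart and muscle. Cox6a2, the muscle form of subunit VIa, had log2 levels of 10.73 and 10.55 in LPS cells, 6.07 and 5.97 in ROS cells, and 8.27 and 8.25 in unstimulated cells. The 3 groups were separated by more than 2 log2 units, ROS lowest and LPS highest. It was 5.18-fold higher in LPS minus unstimulated (2.37 ± 0.12, adjusted p = 3.71e-05), 4.75-fold lower in ROS minus unstimulated (-2.25 ± 0.12, adjusted p = 0.000141) and 24.6-fold higher in LPS minus ROS (4.62 ± 0.12, adjusted p = 7.53e-06). Cox6a1, the form of the same subunit found in most tissues, was at 12.51 and 12.57 in LPS cells, 13.07 and 13.13 in ROS cells, and 12.80 and 12.74 in unstimulated cells. It was not called against unstimulated cells (-0.23 in LPS cells, adjusted p = 0.125, and 0.33 in ROS cells, adjusted p = 0.0567), and LPS minus ROS was -0.56 ± 0.11 (adjusted p = 0.0064), a call lost under median scaling. Its dimmer probe fell in LPS cells (-0.47, adjusted p = 0.0437) and was not called in ROS cells (0.20, adjusted p = 0.354).

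Cox7a1, the muscle form of subunit VIIa, was at 5.25 and 5.85 in LPS cells, 5.96 and 6.36 in ROS cells, and 9.83 and 9.71 in unstimulated cells. Both unstimulated arrays stood more than 3 log2 units above the rest, and 1 of the 2 LPS arrays had the gene above background. It was at least 17.3-fold lower in LPS cells (fitted log2 fold change -4.22 ± 0.24, adjusted p = 5.19e-05) and 12.3-fold lower in ROS cells (-3.62 ± 0.24, adjusted p = 0.00023), and LPS minus ROS was not called (-0.61, adjusted p = 0.072). Cox7a2, the form of most tissues, was at 5.26 and 5.13 in LPS cells, 6.39 and 6.44 in ROS cells, and 6.12 and 6.46 in unstimulated cells. It was not above background on either LPS array and was there at least 1.77-fold lower than in unstimulated cells (adjusted p = 0.00165) and at least 1.93-fold lower than in ROS cells (adjusted p = 0.000955). Cox7a2l, a relative of subunit VIIa that joins complexes III and IV into supercomplexes, was at 10.53 and 10.73 in LPS cells, 10.70 and 10.70 in ROS cells, and 11.66 and 11.81 in unstimulated cells. Both treated groups fell by about the same amount, -1.11 ± 0.13 in LPS cells (adjusted p = 0.000791) and -1.03 ± 0.13 in ROS cells (adjusted p = 0.00188), and LPS minus ROS was -0.08 ± 0.13 (adjusted p = 0.638).

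Of the subunits of complex IV without a second form in the table, Cox4i1, Cox5a, Cox5b, Cox6b1, Cox7c and Cox8a fell in LPS cells. Over all genes 29.0% fell there. Cox6c was not called in limma (-0.74, adjusted p = 0.063), with 9.98 and 9.18 in LPS cells and 10.47 and 10.17 in unstimulated cells. Cox4i1, a large nuclear-encoded subunit that spans the membrane, was at 11.93 and 11.81 in LPS cells, 12.91 and 12.32 in ROS cells, and 13.31 and 13.07 in unstimulated cells. It was 2.49-fold lower in LPS cells (-1.32 ± 0.21, adjusted p = 0.00335), and ROS minus unstimulated was not called (-0.57 ± 0.21, adjusted p = 0.08). LPS minus ROS was -0.75 (adjusted p = 0.0272), a call lost without either LPS array or the first ROS array (adjusted p up to 0.0916). Cox5a, a subunit on the matrix side, was at 12.09 and 12.27 in LPS cells, 12.95 and 13.17 in ROS cells, and 13.19 and 13.14 in unstimulated cells, and fell 1.98-fold in LPS cells (adjusted p = 0.00163). Cox8a, the form of the smallest subunit found in most tissues, was at 12.28 and 12.40 in LPS cells, 13.14 and 12.86 in ROS cells, and 13.22 and 13.48 in unstimulated cells, and fell 2.01-fold there (adjusted p = 0.00274). Both LPS arrays of each lay below the other 4. Cox5b, which binds zinc, was at 12.87 and 12.76 in LPS cells, 13.44 and 13.34 in ROS cells, and 13.63 and 13.53 in unstimulated cells. Cox5b (-0.76, adjusted p = 0.00265) and Cox6b1 (-0.76, adjusted p = 0.0017) fell in LPS cells too, and both calls were lost under median scaling. Cox6b1, which lies on the side of the intermembrane space, was at 13.26 and 13.26 in LPS cells, 14.31 and 14.33 in ROS cells, and 14.03 and 14.02 in unstimulated cells. Its groups did not overlap, and LPS minus ROS was -1.06 ± 0.10 (adjusted p = 0.000401). None of Cox4i1, Cox5a, Cox5b, Cox6b1 and Cox8a was called in ROS minus unstimulated. The plot of levels by array shows 12 members with separate and overlapping groups.

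**Figure D3:**
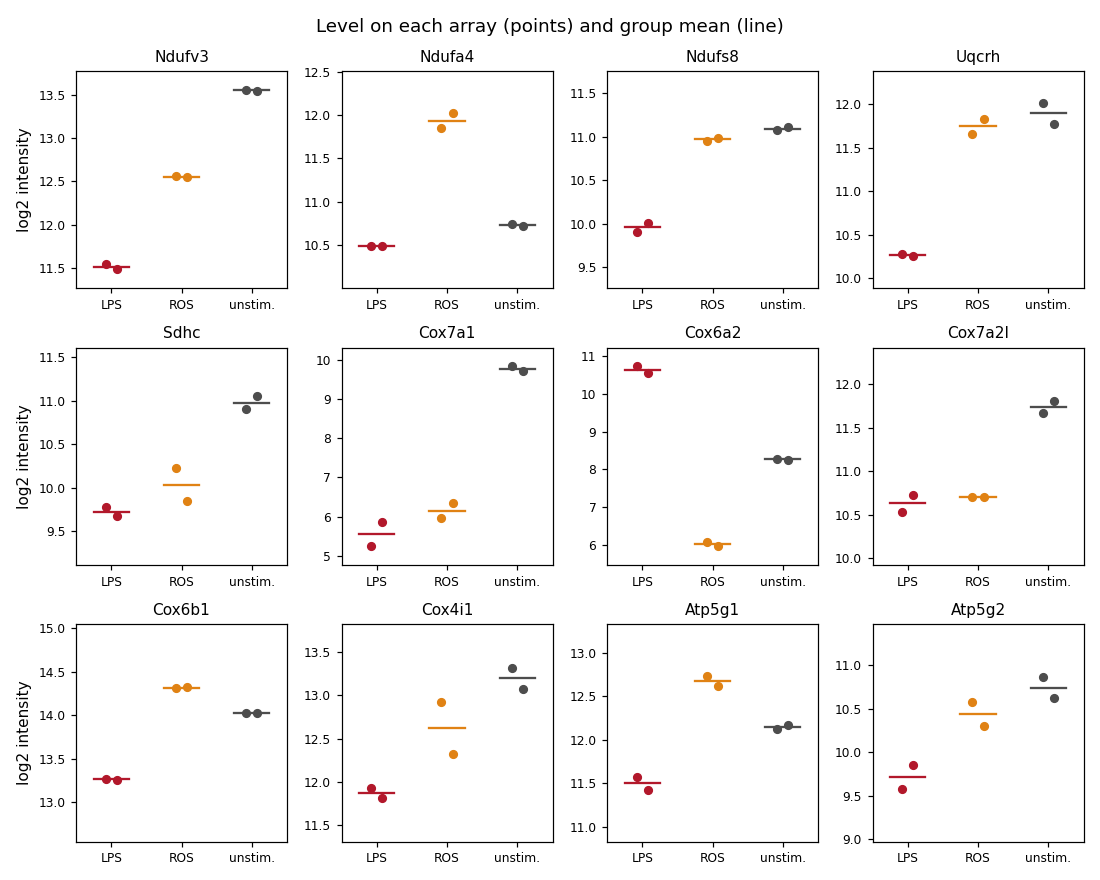
Log2 intensity (y axis, with its own range in each panel) of 12 members on each array (points) and the group mean (line), for LPS, ROS and unstimulated cells from left to right. Cox6a2 is highest on the LPS arrays (10.73 and 10.55), Ndufa4 is highest on the ROS arrays (11.85 and 12.02), and Cox7a1 is highest on the unstimulated arrays (9.83 and 9.71).

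ATP synthase had 11 of 15 members lower in LPS cells and none higher, with a median of -0.55. In ROS cells 3 fell and 1 rose. Over all genes 29.0% fell and 24.7% rose in LPS cells, and 18.0% fell and 21.8% rose in ROS cells. Under median scaling the LPS calls of Atp5c1, Atp5g1, Atp5g3, Atp5j, Atp5j2 and Atp5pb were lost, and 23.5% of all genes fell. The 3 genes of the c-ring, whose mature proteins are identical, all fell in LPS cells. Atp5g1 was at 11.57 and 11.42 in LPS cells, 12.73 and 12.62 in ROS cells, and 12.13 and 12.17 in unstimulated cells. The groups did not overlap, with ROS highest. The log2 fold change was -0.65 ± 0.12 in LPS minus unstimulated (adjusted p = 0.0051), 0.53 ± 0.12 in ROS minus unstimulated (adjusted p = 0.0156) and -1.18 ± 0.12 in LPS minus ROS (adjusted p = 0.000417). The LPS call was lost under median scaling, and the ROS call with no scaling and without the first ROS array or either unstimulated array (adjusted p up to 0.0813). Atp5g2 was at 9.58 and 9.85 in LPS cells, 10.58 and 10.30 in ROS cells, and 10.86 and 10.62 in unstimulated cells, and fell 2.04-fold in LPS cells (adjusted p = 0.00351). Atp5g3 was at 14.02 and 13.92 in LPS cells, 14.73 and 14.79 in ROS cells, and 14.35 and 14.54 in unstimulated cells. Its fall in LPS cells (-0.48, adjusted p = 0.0187) was lost under median scaling and without the second LPS array or the second unstimulated array (adjusted p up to 0.0998). In ROS minus unstimulated Atp5g2 had -0.30 (adjusted p = 0.207) and Atp5g3 had 0.31 (adjusted p = 0.09).

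In the catalytic head of ATP synthase 2 of 5 members fell in LPS cells, Atp5c1 and Atp5d, where 29.0% of all genes fell. The call of Atp5c1 was lost under median scaling. Atp5b, the catalytic beta subunit, was at 15.15 and 15.17 in LPS cells, 15.42 and 15.50 in ROS cells, and 15.25 and 15.50 in unstimulated cells, and was not called in any comparison (-0.22 in LPS minus unstimulated, adjusted p = 0.207). Atp5a1, the alpha subunit, was at 7.02 and 6.82 in LPS cells, 6.63 and 7.23 in ROS cells, and 7.45 and 7.41 in unstimulated cells, with both treated groups below the unstimulated arrays, and was not called in any comparison either (-0.51 in LPS cells, adjusted p = 0.0883, and -0.50 in ROS cells, adjusted p = 0.111). Atp5d, the delta subunit of the central shaft, was at 10.16 and 10.05 in LPS cells, 10.54 and 10.29 in ROS cells, and 10.91 and 10.96 in unstimulated cells. It fell 1.77-fold in LPS cells (adjusted p = 0.00317) and 1.43-fold in ROS cells (adjusted p = 0.0247), the ROS call being lost without the second ROS array or either unstimulated array (adjusted p up to 0.111). In the stalk and membrane part 6 of 7 fell in LPS cells. Of these calls, those of Atp5j, Atp5j2 and Atp5pb were lost under median scaling. Atp5mpl, a small membrane protein of the complex, was at 12.23 and 12.07 in LPS cells, 12.73 and 12.64 in ROS cells, and 13.02 and 13.26 in unstimulated cells, and fell 1.99-fold in LPS cells (adjusted p = 0.00175). Atp5h, part of the outer stalk, was at 9.05 and 8.71 in LPS cells, 9.30 and 9.26 in ROS cells, and 10.00 and 9.66 in unstimulated cells. The groups of both genes did not overlap, LPS lowest. Atp5h fell 1.94-fold in LPS cells (adjusted p = 0.00528). In ROS cells both passed the threshold (-0.46, adjusted p = 0.0419 for Atp5mpl, and -0.55, adjusted p = 0.0485 for Atp5h) and both calls were lost without any 1 ROS or unstimulated array (adjusted p up to 0.187 and 0.218). Atp5j was lower by its brighter probe (-0.44, adjusted p = 0.0321) and higher by its dimmer one (0.96, adjusted p = 0.00136) in LPS cells, so that its direction differs between probes. The call of the brighter probe was also lost without the second LPS array or either unstimulated array (up to 0.134).

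Genes that feed the chain were counted from lists. Of 14 tested genes of the tricarboxylic acid cycle and pyruvate dehydrogenase, 11 fell in LPS cells and none rose, with a median of -1.07, where 29.0% of all genes fell and 24.7% rose. In ROS cells 3 fell and 1 rose, with a median of -0.26, where 18.0% of all genes fell and 21.8% rose. None of these 4 ROS calls (Idh3b, Mdh2, Pdha1 and Suclg2) held with each array left out in turn. Fh1, the fumarase, was at 8.46 and 8.38 in LPS cells, 10.13 and 10.50 in ROS cells, and 10.07 and 10.02 in unstimulated cells (LPS minus unstimulated -1.63 ± 0.15, adjusted p = 0.000356). Both LPS arrays lay below all 4 others. Idh3a, a subunit of the NAD-dependent isocitrate dehydrogenase, fell by 1.50 on the log2 scale in LPS cells (adjusted p = 0.00034), and Mdh2, the malate dehydrogenase of mitochondria, fell by 1.41 (adjusted p = 0.000537) there and by 0.78 in ROS cells (adjusted p = 0.00837, and 0.0548 without the first unstimulated array). Of the 11 falls in LPS cells 9 held with each array left out in turn, while those of Cs and Pdhb did not. Of 25 tested electron carriers and assembly factors, 6 rose and 7 fell in LPS cells, and 6 rose and 3 fell in ROS cells. Over all genes 24.7% rose and 29.0% fell in LPS cells, and 21.8% rose and 18.0% fell in ROS cells. With each array left out in turn, 4 of the 6 rises and 2 of the 7 falls held in LPS cells, and 4 of the 6 rises and none of the 3 falls in ROS cells. The tested genes for building complex IV differed among themselves. Those that rose in both treated groups and held with each array left out were Cox18, which inserts subunit II in the membrane (1.43 ± 0.12 in LPS cells, adjusted p = 0.000248, and 0.82 ± 0.12 in ROS cells, adjusted p = 0.00366), the copper chaperone Cox17 (0.76 and 0.77, adjusted p = 0.00385 and 0.00562) and Cox19 (0.65 and 0.78, adjusted p = 0.00346 and 0.00291). With no scaling the LPS calls of Cox17 and Cox19 were lost. Cox10, which makes heme for complex IV, rose in LPS cells (0.43, adjusted p = 0.0214) and ROS cells (0.66, adjusted p = 0.00646), the LPS call being lost with no scaling and without any 1 LPS or unstimulated array (adjusted p up to 0.108). Surf1, needed to assemble complex IV, fell in ROS cells (-0.75, adjusted p = 0.0177, and up to 0.086 without either ROS array or the first unstimulated array) and was not called in LPS cells (-0.36, adjusted p = 0.13). Cox15, another enzyme of heme synthesis, was not called in LPS cells (-0.0032, adjusted p = 0.985) or ROS cells (0.25, adjusted p = 0.173). Bcs1l, which inserts the iron-sulfur subunit of complex III, was at 6.15 and 6.63 in LPS cells, 7.75 and 7.91 in ROS cells, and 8.55 and 8.24 in unstimulated cells (LPS minus unstimulated -2.0 ± 0.20, adjusted p = 0.00048).

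**Figure D4:**
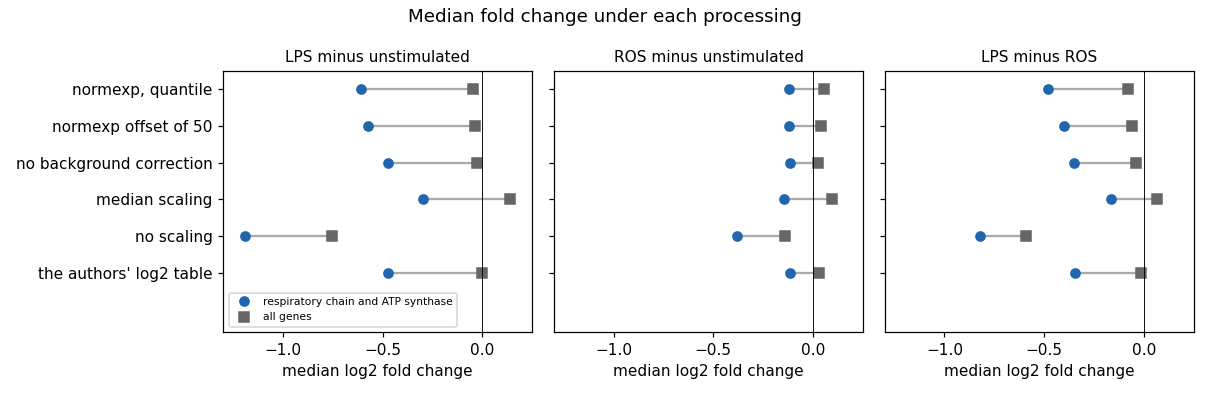
Median log2 fold change (x axis) of the members (circles) and of all genes tested (squares) in each comparison under each way of processing the arrays (rows). The circles lie left of the squares in every row; in LPS minus unstimulated the members' median runs from -0.30 under median scaling to -1.19 with no scaling.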

How the data were processed

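Biotin-labelled cRNA from total RNA of 6 samples was read on 1-colour Illumina bead arrays for mouse. The deposited table gives linear intensity values for 25697 probes, with GenomeStudio 2009.2 named per the submitters' processing notes; whether background was subtracted is not stated in the sources used here. The deposited table also gives detection p-values for 5 arrays. For the second LPS array the detection limit, between 160.52 and 160.57, was recovered from the authors' second table, which lists the log2 intensities of 11220 probes detected on at least 3 arrays (0 probes went against this rule). The authors' log2 values are quantile normalised, as equal sorted columns show, with a median of 8.47. Columns of other samples that were not used numbered 0.

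Intensities were background-corrected with limma's normexp (offset 16), quantile normalised and log2-transformed. Kept probes had a detection p under 0.05 on both arrays of 1 or more groups (11622 probes), which left 7896 of 7989 genes. Names come from the platform annotation: 10558 probes of the authors' table have 1 symbol and 662 are unnamed here. All 69 members matched RefSeq symbols of GRCm38.p6. Comparisons used limma 3.58.1 in R 4.3.3 (lmFit, eBayes), with 1 coefficient a group, 3 residual and 3.02 prior degrees of freedom. Benjamini-Hochberg adjustment was over all kept probes. The fit was tested on simulated arrays in which few probes changed, in the LPS group only. That test does not bear on the choice of scaling. Errors are standard errors. For a gene with an array at background in the dimmer group, "at least" bounds set the brighter mean against, on each array, the lowest detected signal or the probe's value, whichever was higher. Levels of different probes were not compared.

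Members and lists were chosen with earlier results of these data known. Values were given on every array for the 3 largest called rises and falls of each complex in LPS minus unstimulated, the 2 largest in ROS minus unstimulated, and a list of named subunits; other called members were named with values where they bore on a result. The labels do not say whether samples of the same number were paired. No shared effect of replicate number was seen: the deviations of same-numbered arrays correlated at -0.02 (LPS and ROS), 0.02 (LPS and unstimulated) and -0.10 (ROS and unstimulated). Alternatives were an offset of 50, no background correction, median scaling, no scaling, the authors' log2 table, no filter, detection on all 6 arrays, a replicate block, the mean of a gene's probes, and leaving out each array.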

Additional observations from a re-analysis of the deposited data

How the results depend on the processing

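In LPS minus unstimulated, the median of the members was -0.47 with no background correction, -0.30 under median scaling, -1.19 with no scaling, -0.48 in the authors' log2 table, and -0.63 to -0.52 with an array left out. Members higher numbered 3 under median scaling and 1 to 2 with an array left out, and members lower 27 under median scaling and 32 to 44 with an array left out. With no scaling 615 genes were higher and 5182 lower. In ROS minus unstimulated, members higher and lower numbered 15 and 19 with no background correction, 15 and 19 in the authors' table, and 2 and 24 with no scaling, where the median was -0.38 and 1021 genes were higher. With an array left out members higher numbered 3 to 10, members lower 5 to 12, genes higher 1012 to 1801 and genes lower 882 to 1490; the low ends came from leaving out a ROS or unstimulated array. In LPS minus ROS, the median was -0.40 with an offset of 50, -0.35 with no background correction, -0.17 under median scaling, -0.82 with no scaling and -0.35 in the authors' table. Members higher numbered 3 under median scaling, members lower 18 under median scaling and 62 with no scaling, and with no scaling 926 genes were higher and 4383 lower.

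Directions turned under median scaling for Ndufs6 (0.46) and Uqcr10 (0.037) in LPS minus unstimulated and for Ndufv1 (0.33) in LPS minus ROS. They turned with no scaling for Ndufaf5 (-0.90) and Ndufs5-ps (-0.63) in LPS minus unstimulated and for Ndufs3 (-0.56) in LPS minus ROS. The cause was not tested. With the replicate number as a block, which the check of pairing does not warrant, members higher and lower numbered 1 and 44 in LPS minus unstimulated, 8 and 10 in ROS minus unstimulated, and 1 and 35 in LPS minus ROS. An arm left with 1 array was assumed to vary like the other groups. Signal near background limits Ndufb10, Ndufaf3, Cox7a1, Cox7a2 and Atp5e, which were not above background on all 6 arrays. Groups of 2 are too small for the check for single outlying samples.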

Other observations

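Among 10 tested regulators of respiratory genes, 2 rose and 3 fell in LPS cells, and 1 fell in ROS cells. The LPS counts are near the shares over all genes (24.7% rose and 29.0% fell), and in ROS cells 39.8% of all genes were called. With each array left out in turn, 1 of the LPS falls and neither rise held, as did the fall in ROS cells. Ppargc1b, a coactivator that raises mitochondrial genes, had log2 levels of 7.54 and 7.65 in LPS cells, 8.84 and 9.02 in ROS cells, and 10.997 and 11.15 in unstimulated cells. The 3 groups did not overlap, and in limma LPS minus unstimulated was -3.48 ± 0.13 (adjusted p = 1.3e-05) and ROS minus unstimulated was -2.14 ± 0.13 (adjusted p = 0.000189). Nrf1 and Gabpb1, which bind promoters of respiratory genes, rose in LPS cells (0.45, adjusted p = 0.033, and 0.66, adjusted p = 0.0235), and both calls were lost with no scaling and without the first LPS array or either unstimulated array, and for Nrf1 also without the second LPS array (adjusted p up to 0.157). Tfam, which packs mitochondrial DNA, was not called (-0.02 in LPS cells, adjusted p = 0.929).

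Of 11 tested genes of mitochondrial membranes and import, 7 fell and 1 rose in LPS cells, where 29.0% of all genes fell and 24.7% rose, and 2 fell and 1 rose in ROS cells, where 18.0% fell and 21.8% rose. With each array left out in turn, 5 of the LPS falls and 1 of the ROS falls held, and neither rise. Vdac1, a channel of the outer membrane, was at 8.41 and 8.81 in LPS cells, 9.33 and 9.36 in ROS cells, and 10.44 and 10.52 in unstimulated cells (-1.87 ± 0.16 in LPS cells, adjusted p = 0.000248, and -1.14 ± 0.16 in ROS cells, adjusted p = 0.00301). Vdac3 had 0.44 in LPS cells (adjusted p = 0.0317), lost without any 1 LPS or unstimulated array (up to 0.136). Pdk1, a kinase that holds back pyruvate dehydrogenase and is known to rise in low oxygen, was at 6.04 and 6.02 in LPS cells, 6.35 and 6.12 in ROS cells, and 9.50 and 9.43 in unstimulated cells. Its log2 fold change was -3.43 in LPS cells (adjusted p = 1.29e-05) and -3.23 in ROS cells (adjusted p = 7.95e-05). Pdk1 and Ldha were the 2 tested of 8 genes listed as changing with oxygen. Ldha was not called in LPS minus unstimulated and was higher in LPS minus ROS (0.63). It fell in ROS cells (-0.83), a call lost without the first unstimulated array. Hif1a, the oxygen-sensing factor, was higher in LPS cells (2.21 ± 0.18, adjusted p = 0.000201), with 10.74 and 10.76 on the LPS arrays, 7.95 and 8.28 on the ROS arrays, and 8.36 and 8.73 on the unstimulated arrays. Sod2, the superoxide dismutase of mitochondria, rose by 2.00 ± 0.17 in LPS cells (adjusted p = 0.000257), and Nos2, the inducible nitric oxide synthase, by 2.88 ± 0.21 (adjusted p = 0.000147). Hif1a, Sod2 and Nos2 were the 3 tested of 6 genes listed for macrophage activation. In ROS cells Nos2 fell (-0.89), a call lost without the second ROS array or the second unstimulated array. Hif1a and Sod2 were not called there.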
